A study of Homo sapiens with 18 samples.

Results

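B11, a subclone of the human acute myeloid leukaemia line THP1, was compared with THP1 itself after both had spent 5 days in 1 ug/ml doxycycline, by RNA-seq of 3 libraries a side. These are 6 of the 18 libraries of the series, the others being the same lines at 0 and at 10 ug/ml, with 3 libraries in each of 6 groups. The members are these 6 libraries and the 17555 of 60658 Ensembl gene IDs that reached 1 FPKM (fragments per kilobase of transcript, scaled to the mapped fragments of the library) in at least 3 of the 18 libraries. B11 at 1 ug/ml carries a lentiviral, doxycycline-inducible NRAS with the G12V change and GFP that CRISPR guides cannot cut. Its cells were selected for GFP after doxycycline, transduced with Cas9, puromycin resistance and a pair of guide RNAs flanking the NRAS start codon, and cloned under puromycin; its label reads heterozygous NRAS-G12V. THP1 at 1 ug/ml is the parent line, labelled heterozygous NRAS-G12D, with neither vector named in its labels, on the same dose for the same time. B11 is 1 clone, and the plates of each line came from 1 culture that had been split, so p-values measure the spread between plates. The transgene, the edit, the selection and the history of 1 clone all differ between the lines and cannot be told apart here.

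NRAS is a small GTPase that relays growth factor signals through RAF, MEK and ERK kinases, and its codon 12 mutants stay bound to GTP. ERK in turn drives immediate early genes such as EGR1 and its own inhibitors, the DUSP and SPRY proteins. In inducible vectors of this kind doxycycline switches on the promoter of the inserted gene, so the 1 ug/ml libraries give the lines at the lower of both inducing doses. THP1 is a monocyte-like line that carries a MLL fusion gene, and NRAS mutations are common in this kind of leukaemia.

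Depth, estimated from the smallest values of the table, was 12880000 to 17500000 fragments in these 6 libraries. Replicates within these groups correlated with r = 0.940 to 0.958. All 14 markers of a monocytic leukaemia line were at or above 1 FPKM in both groups, with summed levels of 1972 to 2009 FPKM in B11 and 2098 to 2201 FPKM in THP1. The 15 B, T and NK cell markers summed to 215 to 239 FPKM in B11 and 81.0 to 101 FPKM in THP1, a gap carried by NCAM1, while CD2, CD3E, CD3G, MS4A1 and KLRD1 were at 0 in both groups. The 14 erythroid and megakaryocytic markers summed to 6.31 to 14.4 FPKM in B11 and 6.33 to 12.3 FPKM in THP1, with HBB at 0 in both. The 12 fibroblast and epithelial markers summed to 2.91 to 3.47 FPKM in B11 and 5.61 to 11.6 FPKM in THP1, with EPCAM and COL1A2 at 0 in both. In the low dose B11 group, libraries B and C stand apart in a single unnamed ID at 76850 and 42501 FPKM, which was near 0 elsewhere and did not enter the test. Leaving out both leaves 1 B11 library at this dose, so a fall in calls then cannot be told from the loss of samples. Leaving out 1 library at a time gave 4233 to 5305 genes that passed the test, against 5231 with all.

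At 1 ug/ml 5231 genes (29.8%) differed between B11 and THP1 with a limma adjusted p below 0.05, which is what "called" means below. Of these 2639 were higher in B11 (15% of genes tested) and 2592 lower (14.8%), and the median difference over all genes tested was -0.01. Differences are B11 minus THP1 on the log2(FPKM + 1) scale throughout, which understates the change of low genes. A change of 2-fold or more on that scale was called for 752 genes higher (4.28%) and 636 lower (3.62%). Protein-coding genes were called at 36.0% of 12733 tested, lincRNAs at 18.7% of 760, antisense genes at 13.1% of 1286 and pseudogenes at 12.1% of 1825. The libraries of the lines did not overlap for 3820 genes with B11 above (21.8%) and 3823 with B11 below (21.8%). Genes named for the largest differences were chosen with no overlap, and list members by the smallest p. Separation of the libraries of such genes is therefore a description. In bulk RNA, fewer cells of a kind and less RNA per cell cannot be told apart.

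NRAS itself did not pass the test at 1 ug/ml. It had 24.4, 23.7 and 23.3 FPKM in B11, against 23.2, 21.5 and 25.5 FPKM in THP1, a difference of 0.03 with a 95% interval of -0.12 to 0.18 (SE 0.07, limma adjusted p = 0.83). The libraries of the lines overlapped, and the table holds 1 value for NRAS, so transgene and edited gene are not separated. The difference was -0.15 at 0 and 0.20 at 10 ug/ml, of which the second was called. Of 13 RAS-like GTPases tested, of 16 listed, 2 were called higher and 3 lower, with a median of 0.03. The share called was 38.5%, against 36.0% of all protein-coding genes tested. RRAS2 (0.74) and RRAS (0.48) were higher, and RHEB (-0.73), the activator of mTORC1, and RAP2B (-0.48) were among those lower. Under 30 alternative settings, described at the end, the call was lost in 7 for RRAS2, 4 for RRAS and 1 for RAP2B. HRAS, RAP1A, RAP1B, RALA, RALB, MRAS and RIT1 did not pass the test, with differences from -0.26 for HRAS to 0.29 for RALB.

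The early response factors EGR1 and NR4A1 were higher in B11, and JUN and the ERK phosphatase DUSP6 were lower. Among 30 upstream regulators and kinases 6 were called higher and 5 lower, with a median of 0.04. The share called was 36.7%, near the 36.0% of all protein-coding genes tested. RASGRP4, a RAS exchange factor (0.84), GAB2, a docking adaptor (0.77), and MAP2K1, the kinase MEK1 (0.69), were among the 6 called higher. Of 24 immediate early and ERK-driven transcription factors tested, of 30 listed, 12 were called higher and 2 lower, with a median of 0.36. Genes on chromosomes 5, 6, 10 and 17 were higher in B11 as blocks, as described below, and EGR1 lies on chromosome 5. On these chromosomes 3 of 4 listed factors were called higher, with a median of 0.82. Elsewhere it was 9 higher and 2 lower of 20, with a median of 0.29. EGR1 had 21.6, 20.3 and 20.5 FPKM in B11, against 3.07, 2.79 and 3.12 FPKM in THP1, a difference of 2.45 (SE 0.12, limma adjusted p = 1.90e-09). NR4A1, an orphan nuclear receptor induced early after stimulation, had 16.2, 16.2 and 18.3 FPKM in B11, against 2.59, 1.87 and 2.88 FPKM in THP1, a difference of 2.39 (SE 0.22, limma adjusted p = 1.49e-06). Neither gene's libraries overlapped between the lines. ZFP36, which speeds the decay of cytokine mRNAs, was higher by 0.93. JUN went the other way, with 3.52, 4.41 and 3.81 FPKM in B11, against 12.5, 11.1 and 12.1 FPKM in THP1, a difference of -1.39 (SE 0.12, limma adjusted p = 7.52e-07), and KLF4, named here after its value was seen, was the other one called lower (-0.82). FOS, also named after its value was seen, had 37.3, 48.5 and 37.7 FPKM in B11, against 51.1, 38.6 and 39.2 FPKM in THP1, and did not pass the test.

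Among 14 MAPK phosphatases and feedback inhibitors tested, of 17 listed, 3 were called higher and 2 lower, with a median of -0.12. The share called was 35.7%, near the 36.0% of all protein-coding genes tested. On chromosomes 5, 6, 10 and 17 2 of 4 were called higher. Elsewhere it was 1 higher and 2 lower of 10, with a median of -0.21. DUSP6, which removes phosphate from ERK, had 22.1, 22.1 and 21.3 FPKM in B11, against 33.3, 42.2 and 36.5 FPKM in THP1, a difference of -0.74 (SE 0.14, limma adjusted p = 8.65e-04). All 3 B11 libraries lay below the THP1 libraries. The nuclear phosphatase DUSP2 was lower too (-0.74), while SPRY2, a RAS pathway inhibitor (0.35), and DUSP3 on chromosome 17 (0.28) were higher. Under the 30 alternative settings the call was lost in 6 for SPRY2, 4 for DUSP2 and 1 for DUSP3. Without doxycycline DUSP6 had 1.40, 1.98 and 1.64 FPKM in B11 and 44.5, 38.2 and 43.7 FPKM in THP1, a difference of -4.01. The change in the difference between the doses was 3.28 for DUSP6 (SE 0.19, limma adjusted p = 1.40e-08) and 3.83 for EGR1 (SE 0.16, limma adjusted p = 9.02e-10). At 0 ug/ml, where 23.5% of all genes tested were called higher and 23.6% lower, the feedback list had 2 higher and 10 lower with a median of -0.87, and the early response list 3 higher and 14 lower with a median of -0.58. At 10 ug/ml, where 16.4% of genes were called higher and 16% lower, the early response list had 13 higher and 4 lower with a median of 0.76, and EGR1 stood at 3.55. Leaving out 1 library at a time, 10 to 13 of the early response genes were called higher at 1 ug/ml, against 12 with all.

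Genes on chromosomes 5, 6, 10 and 17 were higher in B11 as blocks. Over 12709 protein-coding genes tested with a median difference of -0.02, the chromosome medians were 0.70 on chromosome 10, 0.50 on 17, 0.34 on 5 and 0.33 on 6. The other 19 chromosomes, with 10226 genes, lay between -0.21 and -0.04. On chromosome 10, 279 of 456 genes were called higher and 10 lower, on chromosome 17 it was 425 and 29 of 805, on chromosome 5 222 and 43 of 563, and on chromosome 6 266 and 52 of 659. The 4 chromosomes held 19.5% of the genes, 52.2% of the calls higher (1192, against 1092 elsewhere) and 5.86% of the calls lower (134, against 2154 elsewhere). Since the chromosomes were picked by these differences, the counts are a description. DNA copy number was not analysed here, and its part in these differences was not tested.

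The chromosome medians were alike in every library. Measured against the mean of untreated THP1, the chromosome 10 median was 0.72, 0.69 and 0.65 in B11 and -0.06, -0.02 and -0.01 in THP1. On chromosome 17 it was 0.52, 0.55 and 0.52 in B11, against 0.01, 0.05 and 0.003 in THP1. On chromosome 5 it was 0.35, 0.33 and 0.30 in B11 and -0.01, 0.01 and -0.002 in THP1. On chromosome 6 it was 0.34, 0.34 and 0.32 in B11 and -0.01, 0.01 and -0.02 in THP1. The differences were of like size at all 3 doses: less the median of the other chromosomes, chromosome 10 stood at 0.76, 0.80 and 0.79 at 0, 1 and 10 ug/ml, chromosome 17 at 0.65, 0.60 and 0.55, chromosome 5 at 0.39, 0.44 and 0.46, and chromosome 6 at 0.39, 0.43 and 0.38.

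**Figure D1:**
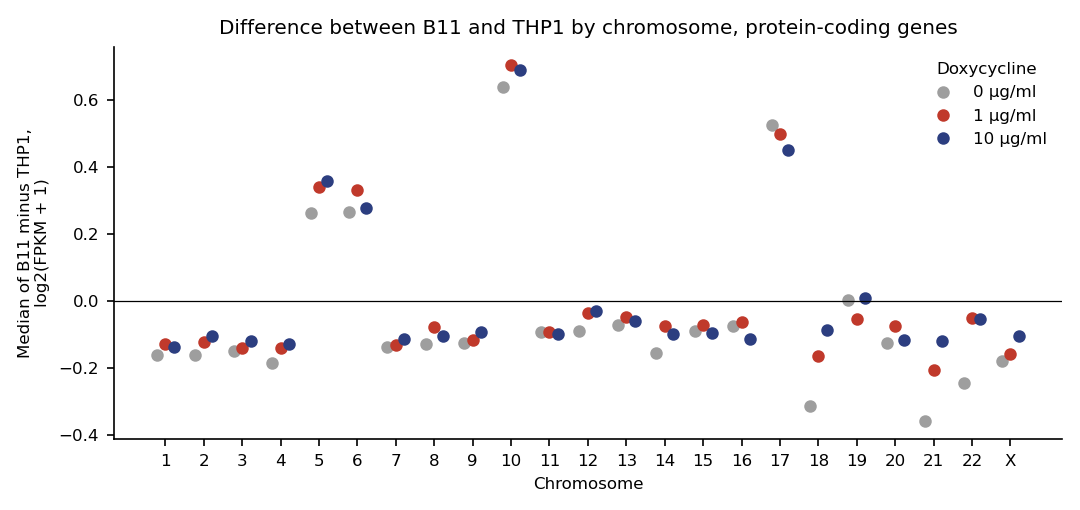
Median difference between B11 and THP1 (log2(FPKM + 1), B11 minus THP1) of the protein-coding genes of each chromosome, at 0, 1 and 10 ug/ml doxycycline. Chromosomes 5, 6, 10 and 17 lie above the other 19 at each dose, at 0.34, 0.33, 0.70 and 0.50 at 1 ug/ml.

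Chromosome 10 was raised along its length, while chromosomes 6 and 17 were raised most in part. A running median over 41 neighbouring protein-coding genes stayed above 0.4 on all of chromosome 10, from chr10:134465-133561220 (GRCh38), with 456 genes from ZMYND11 to CYP2E1. On chromosome 17 the longest such run was chr17:142789-28614197, from DOC2B to UNC119, where 168 of 251 genes were called higher and 7 lower, with a median of 0.78. On chromosome 6 it was chr6:291630-31959110, from DUSP22 to NELFE, where 116 of 188 genes were called higher and 5 lower, with a median of 0.67. Genes starting before 22 Mb on chromosome 17 had a median of 0.82 and the rest 0.39, and genes starting before 33 Mb on chromosome 6 had 0.59 and the rest 0.21. The highest window of all, RNASEK to WRAP53 on chromosome 17, had 31 of 41 genes called higher and none lower, with a running median of 0.99 at 1 ug/ml, 0.93 at 0 and 0.99 at 10. The lowest, ZNF777 to PAXIP1 on chromosome 7, had 5 called higher and 16 lower, with -0.45. Gene groups below are therefore split by these 4 chromosomes where the split bears on the count.

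**Figure D2:**
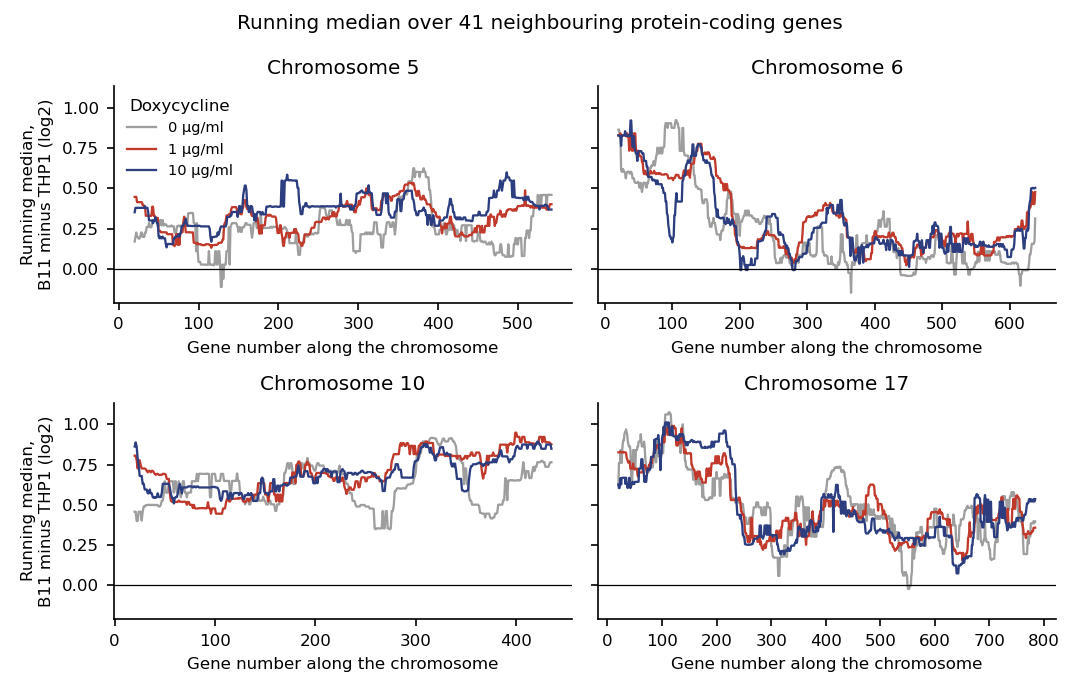
Running median of the difference between B11 and THP1 (log2(FPKM + 1), B11 minus THP1) over 41 neighbouring protein-coding genes along chromosomes 5, 6, 10 and 17, with a line for each dose; the x axis is the gene's number along its chromosome. Chromosome 10 stays above 0.4 at 1 ug/ml along its length, and chromosomes 6 and 17 are highest over their first genes.

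Interferon-stimulated genes were higher in B11 at 1 ug/ml. Type I interferon signals through JAK kinases to a complex with STAT2 and IRF9 that binds the ISRE, a repeat of GAAA with a spacer, in promoters of antiviral genes. Of 59 interferon-stimulated effectors tested, of 63 listed, 44 were called higher and 2 lower, with a median of 0.94. Away from chromosomes 5, 6, 10 and 17 the count was 35 higher and 2 lower of 50 with a median of 0.82, and on those 4 it was 9 higher of 9 with a median of 2.0. The genes called lower were GBP5 (-1.80) and TDRD7 (-0.23). MX1 (-0.45), BST2 (-0.01) and ISG20 (0.94) were among 13 that did not pass the test; these 5 were named after their values were seen.

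Promoters of 3 of the interferon-stimulated genes called higher, and of 2 genes of the ATF4 list and 1 of the sterol list below, are shown because they hold a motif known for each group. They are the 250 bases before the RefSeq start site (GRCh38.p14), 5′ to 3′ on the gene's strand, with matches of the motif on either strand in capitals. ISG15 (chr1:1013247-1013496, plus strand) and IFIT1 (chr10:89392373-89392622, plus strand) hold 2 overlapping or neighbouring ISRE matches (GAAA, any 2 bases, GAAA), and IFI6 (chr1:27672193-27672442, minus strand) holds 3. ASNS (chr7:97872409-97872658, minus strand) and CHAC1 (chr15:40953221-40953470, plus strand) hold 1 match each of the CARE (TGATGNAA), to which ATF4 binds with a CEBP partner. SREBF2 (chr22:41832855-41833104, plus strand) holds 1 match of a sterol element (TCACNCCAC), the kind of site that SREBP proteins bind.
ISG15: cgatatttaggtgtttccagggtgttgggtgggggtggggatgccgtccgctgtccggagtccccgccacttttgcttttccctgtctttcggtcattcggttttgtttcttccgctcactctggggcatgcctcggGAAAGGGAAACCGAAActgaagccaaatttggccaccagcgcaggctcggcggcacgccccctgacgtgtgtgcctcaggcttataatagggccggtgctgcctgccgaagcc
IFI6: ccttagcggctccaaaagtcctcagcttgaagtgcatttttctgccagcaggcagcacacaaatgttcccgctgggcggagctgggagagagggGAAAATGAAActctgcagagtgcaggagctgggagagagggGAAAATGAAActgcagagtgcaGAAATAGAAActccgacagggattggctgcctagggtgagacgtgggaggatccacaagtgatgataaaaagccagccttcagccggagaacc
IFIT1: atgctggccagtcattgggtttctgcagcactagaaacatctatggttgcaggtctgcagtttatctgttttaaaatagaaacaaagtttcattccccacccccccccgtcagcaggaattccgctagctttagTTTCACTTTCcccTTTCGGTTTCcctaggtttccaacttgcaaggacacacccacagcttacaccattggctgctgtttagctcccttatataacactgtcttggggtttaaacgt
ASNS: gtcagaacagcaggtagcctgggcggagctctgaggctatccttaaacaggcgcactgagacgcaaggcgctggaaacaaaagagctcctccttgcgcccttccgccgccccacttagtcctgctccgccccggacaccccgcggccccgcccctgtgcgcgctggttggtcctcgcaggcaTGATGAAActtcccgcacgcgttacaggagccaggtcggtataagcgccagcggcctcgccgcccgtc
CHAC1: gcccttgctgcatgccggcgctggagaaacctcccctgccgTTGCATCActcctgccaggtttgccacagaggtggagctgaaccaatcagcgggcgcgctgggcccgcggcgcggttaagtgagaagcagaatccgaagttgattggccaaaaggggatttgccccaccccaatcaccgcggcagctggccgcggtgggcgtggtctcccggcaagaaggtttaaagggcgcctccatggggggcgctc
SREBF2: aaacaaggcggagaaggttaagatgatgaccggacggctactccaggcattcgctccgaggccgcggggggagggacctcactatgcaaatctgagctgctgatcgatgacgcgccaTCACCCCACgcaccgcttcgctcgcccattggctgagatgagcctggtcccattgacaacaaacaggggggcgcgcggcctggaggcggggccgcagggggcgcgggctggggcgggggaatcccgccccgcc

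In a window of 300 bases, with 50 after the start, the ISRE letters stood in 3.57% of 35116 RefSeq promoters and in 28 of the 45 interferon-stimulated genes with a promoter entry (62.2%). They stood in 20 of 33 of these called higher (60.6%) and in 8 of 12 not called higher (66.7%). The CARE stood in 3.62% of all promoters and in 5 of 28 ATF4 list genes (17.9%). It stood in 5 of 26 of these called higher (19.2%) and in 0 of 2 not called higher, too few to compare. The sterol element stood in 1.13% of all promoters and in 1 of 19 genes of the sterol list (5.26%). A match is a description of these letters and not a binding site.

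Among the interferon-stimulated genes called higher, ISG15, a ubiquitin-like modifier, had 140.2, 161 and 133 FPKM in B11, against 27.8, 28.9 and 26.6 FPKM in THP1, a difference of 2.34 (SE 0.10, limma adjusted p = 1.00e-09). IFI6, a mitochondrial antiviral protein, had 220.2, 237 and 207 FPKM in B11, against 85.9, 79.4 and 79.4 FPKM in THP1, a difference of 1.43 (SE 0.07, limma adjusted p = 4.07e-09). XAF1, an interferon-induced partner of apoptosis inhibitors on chromosome 17, had 98.7, 97.8 and 93.7 FPKM in B11, against 18.6, 21.5 and 20.2 FPKM in THP1, a difference of 2.21 (SE 0.12, limma adjusted p = 6.05e-09). No B11 library of these genes fell within the THP1 range. LY6E, a GPI-anchored protein, was higher by 1.92, IFITM1, which hinders virus entry, by 2.03, and the sialic acid receptor SIGLEC1 by 2.07. OAS2, which makes the second messenger that activates RNase L, had 61.8, 65.1 and 61.6 FPKM in B11, against 13, 7.15 and 17.5 FPKM in THP1, and OAS3 was higher by 1.95. IFI27 had 80.3, 95.8 and 70.2 FPKM in B11, against 1.67, 11.4 and 12.2 FPKM in THP1, a difference of 3.44 (SE 0.55, limma adjusted p = 2.32e-04). IFIT1, named because its promoter is shown, had 11, 11.6 and 8.24 FPKM in B11, against 0.741, 0.934 and 0.690 FPKM in THP1, a difference of 2.65 (SE 0.18, limma adjusted p = 4.94e-08).

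Of 29 ligands, receptors, sensors and transducers of the pathway tested, of 35 listed, 11 were called higher and 4 lower, with a median of 0.10. Away from chromosomes 5, 6, 10 and 17 it was 7 higher and 3 lower of 23. Without doxycycline the 29 had 12 higher and 6 lower with a median of 0.31, and the change of the difference from 0 to 1 ug/ml was called higher for 5 and lower for 5. IRF7, the transcription factor that amplifies interferon production, had 65.9, 67.9 and 68.8 FPKM in B11, against 16.8, 15.7 and 16.6 FPKM in THP1, a difference of 1.98 (SE 0.13, limma adjusted p = 4.61e-08). STAT2 was higher by 0.90, and IRF9, named after its value was seen, by 1.38. TMEM173, which encodes the DNA sensor adaptor STING and lies on chromosome 5, was higher by 0.56. IRF5 was lower (-0.83), and so was the interferon gamma receptor IFNGR1 (-0.47). IFNB1, the interferon beta gene, was listed at 0.577, 0 and 0.282 FPKM in B11 and at 0, 0 and 0.355 FPKM in THP1, below the level needed for the test.

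The higher interferon-stimulated genes stood out at the lower dose. At 0 ug/ml the same 59 genes had 17 called higher and 13 lower with a median of -0.04, and at 10 ug/ml 9 higher and 13 lower with a median of -0.06. The change in the difference from 0 to 1 ug/ml was called higher for 33 genes and lower for 2, with a median change of 0.89. Over all genes tested that change was called higher for 14.3% and lower for 11.6%. From 1 to 10 ug/ml it was called lower for 31 of the genes and higher for none, with a median change of -1.04. Over all genes it was called higher for 2.25% and lower for 2.39%. A change called higher is a shift towards B11, which can make a negative difference smaller. ISG15 had 41.8, 36.7 and 37.7 FPKM at 0, 140.2, 161 and 133 FPKM at 1 and 37.8, 42.3 and 33.6 FPKM at 10 ug/ml in B11. In THP1 it had 29.3, 32.3 and 33.9 FPKM at 0, 27.8, 28.9 and 26.6 FPKM at 1 and 30.7, 30.03 and 25.2 FPKM at 10 ug/ml. The change in its difference was 2.06 for 1 against 0 (SE 0.15, limma adjusted p = 9.78e-08) and -1.94 for 10 against 1 (SE 0.15, limma adjusted p = 4.64e-06). The difference of IRF7 was 1.27, 1.98 and 0.59 at 0, 1 and 10 ug/ml, and that of STAT2 was 2.02, 0.90 and 0.19.

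Genes of the ATF4 branch of the integrated stress response were higher in B11 almost as a group. ATF4 is a transcription factor whose mRNA is translated when eIF2alpha is phosphorylated, and it drives amino acid synthesis, uptake and tRNA charging. Of 44 genes tested, of 45 listed, 41 were called higher and none lower, with a median of 1.26. Away from chromosomes 5, 6, 10 and 17 it was 35 of 37 with a median of 1.18. ALDH18A1 (0.00), SLC1A5 (0.17) and NUPR1 (0.79), named after their values were seen, did not pass the test. ATF4 itself was higher by 1.18, also named after its value was seen.

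ASNS, which makes asparagine, had 120.3, 117 and 117 FPKM in B11, against 11.6, 14.7 and 23.9 FPKM in THP1, a difference of 2.81 (SE 0.20, limma adjusted p = 1.30e-07). TRIB3, a pseudokinase that restrains ATF4, had 264, 254 and 271 FPKM in B11, against 42.6, 42.1 and 41.5 FPKM in THP1, a difference of 2.62 (SE 0.15, limma adjusted p = 1.05e-08). DDIT4, an mTORC1 inhibitor on chromosome 10, had 181, 173 and 177 FPKM in B11, against 19, 19.9 and 18 FPKM in THP1, a difference of 3.16 (SE 0.15, limma adjusted p = 1.88e-09). These genes lay between 6.25-fold and 9.33-fold higher in mean FPKM, and no B11 library overlapped the THP1 libraries. CHAC1, which degrades glutathione, had 61.8, 67.5 and 68.6 FPKM in B11, against 5.05, 6.47 and 6.31 FPKM in THP1, a difference of 3.27 (SE 0.54, limma adjusted p = 3.24e-04). SESN2, a leucine sensor, was higher by 2.47, PHGDH, the first enzyme of serine synthesis, by 2.09, and SLC7A5, the large neutral amino acid transporter, by 1.82. The antisense gene DDIT4-AS1, whose exons overlap DDIT4, had 35, 30.6 and 44.6 FPKM in B11, against 0.00170, 9.71 and 4.30 FPKM in THP1; without a stated strand its reads and those of DDIT4 cannot be told apart.

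The ATF4 group was also highest at the lower dose. At 0 ug/ml 1 gene was called higher and 22 lower, with a median of -0.56, and at 10 ug/ml 17 higher and 1 lower, with a median of 0.47. The change in the difference was called higher for 41 genes at 1 against 0 ug/ml, with a median of 1.70, and lower for 17 at 10 against 1 ug/ml, with a median of -0.92 and none higher. TRIB3 had 12, 22.6 and 15 FPKM at 0, 264, 254 and 271 FPKM at 1 and 97.9, 95.5 and 104 FPKM at 10 ug/ml in B11. In THP1 it had 41.8, 43.6 and 44.5 FPKM at 0, 42.6, 42.1 and 41.5 FPKM at 1 and 60.9, 68.8 and 56.5 FPKM at 10 ug/ml. For CHAC1 the change from 1 to 10 ug/ml was -2.80 (SE 0.77, limma adjusted p = 0.0522), which did not pass the test, and its THP1 plates at 10 ug/ml had 14.5, 16 and 12.8 FPKM. Of 34 chaperones of the endoplasmic reticulum and heat shock proteins 11 were called higher and 13 lower, with a median of -0.12. On chromosomes 5, 6, 10 and 17 7 of 8 were called higher, and on the other chromosomes 4 of 26 were higher and 13 lower, with a median of -0.21. In that list HSPA9, the mitochondrial chaperone mortalin on chromosome 5 (1.21), HSPB1 (0.85) and EDEM1, a factor of protein disposal (0.93), were higher, and the chaperone HSP90B1 was lower (-0.62).

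**Figure D3:**
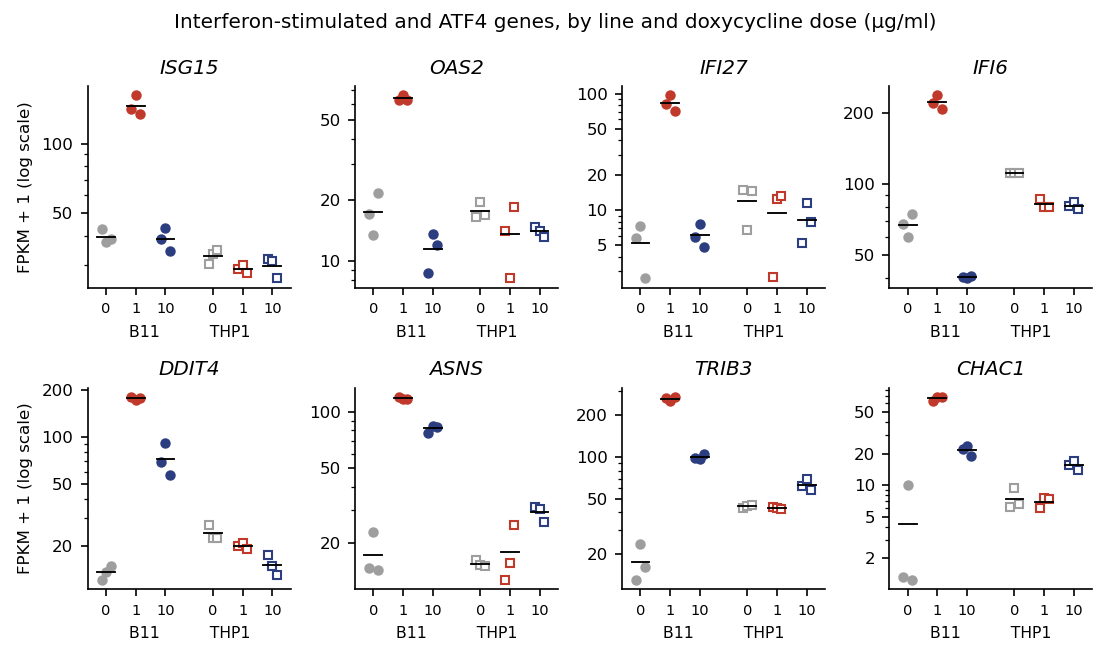
FPKM + 1 (log axis) of 4 interferon-stimulated genes (ISG15, OAS2, IFI27, IFI6) and 4 ATF4 list genes (DDIT4, ASNS, TRIB3, CHAC1) in every library of B11 (filled circles) and THP1 (open squares) at 0, 1 and 10 ug/ml doxycycline, with a bar at each group mean. At 1 ug/ml every B11 library lies above every THP1 library for each gene, as for ISG15 with 140.2, 161 and 133 FPKM in B11 and 27.8, 28.9 and 26.6 FPKM in THP1.

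Cholesterol synthesis genes were lower in B11. These enzymes and the LDL receptor are driven by SREBP2 when sterols are scarce. Of 25 genes tested, of 26 listed, 20 were called lower and none higher, with a median of -0.73. SQLE, the squalene epoxidase, had 35.9, 31.6 and 28 FPKM in B11, against 98.2, 96.9 and 111 FPKM in THP1, a difference of -1.65 (SE 0.10, limma adjusted p = 2.55e-08). FDFT1, the squalene synthase, had 325, 323 and 307 FPKM in B11, against 563, 625 and 625 FPKM in THP1, a difference of -0.92 (SE 0.09, limma adjusted p = 1.92e-06). For both genes every B11 library lay below every THP1 library. SC5D was lower by -1.39 and MSMO1 by -1.73, both enzymes of the later sterol steps. SREBF2, the gene of SREBP2, was lower by -0.24, named here because its promoter is shown. The 5 that did not pass, ACAT2, IDI1, TM7SF2, PMVK and STARD4, lay between -0.15 and 0.16.

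At 0 ug/ml 23 of the sterol genes were called lower and none higher, with a median of -1.63, and at 10 ug/ml 7 higher and 4 lower, with a median of 0.20. The change in the difference was called higher for 19 genes and lower for 1 at 1 against 0 ug/ml, and higher for 19 and lower for none at 10 against 1 ug/ml. SQLE stood at -2.72, -1.65 and -0.52 at 0, 1 and 10 ug/ml, and FDFT1 at -1.50, -0.92 and 0.13. MSMO1 had 6.75, 3.35 and 7.15 FPKM at 0, 13.9, 12.9 and 9.42 FPKM at 1 and 37.3, 34.4 and 25.9 FPKM at 10 ug/ml in B11, and 47.8, 46.6 and 49.9 FPKM, 40.8, 41.1 and 43.8 FPKM and 26.2, 19.5 and 33.2 FPKM in THP1 at the same doses. Of 14 fatty acid synthesis and desaturation genes tested, of 16 listed, 5 were called higher and 1 lower, with a median of 0.09. The share called was 42.9%, against 36.0% of all protein-coding genes tested. On chromosomes 5, 6, 10 and 17 4 of 7 were called higher. Elsewhere it was 1 higher and 1 lower of 7, with a median of -0.06. In this list the NADPH source ME1 (1.62), the desaturase SCD (0.58) and SREBF1 (0.80) were higher, and they lie on chromosomes 6, 10 and 17. Among 15 LXR targets and sterol efflux genes tested, of 16 listed, 4 were called higher and 5 lower; APOE (-2.30), the efflux pump ABCA1 (-1.77) and the lipase LPL (-3.52) were lower.

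Of 76 cytoplasmic ribosomal protein genes 7 were called higher and 45 lower, with a median of -0.27. All 7 called higher were among the 14 on chromosomes 5, 6, 10 and 17, where 1 was called lower, and the other chromosomes had none higher and 44 lower of 62. RPS19 had 2752, 2971 and 2933 FPKM in B11, against 4950.1, 5004 and 4644 FPKM in THP1, a difference of -0.75 (SE 0.05, limma adjusted p = 5.45e-08). RPL19, on chromosome 17, had 4424, 4665 and 4576 FPKM in B11, against 2890.3, 2818 and 2684 FPKM in THP1, a difference of 0.70 (SE 0.06, limma adjusted p = 5.35e-07). Neither gene's libraries overlapped between the lines; these genes have many processed copies in the genome, so their levels are uncertain. At 0 ug/ml the list had 36 called higher and 15 lower with a median of 0.17, and at 10 ug/ml 13 and 14 with a median of -0.07. Mitochondrial ribosomal proteins were called higher for 22 and lower for 11 of 76, with 16 of the higher calls among the 20 genes on the 4 chromosomes. Among 40 nucleolar genes 6 were called higher and 12 lower, a share of 45.0% against 36.0% of all protein-coding genes tested. On the 4 chromosomes 4 of 10 were called higher and 0 lower. Elsewhere it was 2 higher and 12 lower of 30, with a median of -0.31. NCL (-0.37) and NOP56 (-0.51) were lower and the helicase gene DDX21 on chromosome 10 was higher (0.90).

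The replication and mitotic genes tested were all called lower in B11 without doxycycline, and a smaller number of them at 1 ug/ml. Of 41 replication genes 2 were called higher and 16 lower, with a median of -0.31, against none higher and 41 lower at 0 ug/ml, with a median of -2.31. MCM4, a subunit of the replicative helicase, had 447, 418 and 419.6 FPKM in B11, against 797, 870.1 and 769 FPKM in THP1, a difference of -0.92 (SE 0.10, limma adjusted p = 7.33e-06). At 0 ug/ml MCM4 stood at -3.16 and at 10 ug/ml at -0.79. Of 42 mitotic genes 5 were called higher and 14 lower, with a median of -0.18, and all 42 were called lower at 0 ug/ml, with a median of -2.53. The 5 higher calls were among the 12 mitotic genes on chromosomes 5, 6, 10 and 17, and included AURKB on chromosome 17 (1.18), KIF11 (0.82) and CDK1 (0.66) on chromosome 10. The change in the difference between 0 and 1 ug/ml was called higher for all 41 replication and all 42 mitotic genes, and between 1 and 10 ug/ml for none of the replication genes and 3 of the mitotic genes. CDKN1A, the p21 inhibitor of cyclin-dependent kinases on chromosome 6, had 54, 59.6 and 58.1 FPKM in B11, against 27.2, 27.6 and 29.7 FPKM in THP1, a difference of 1.00 (SE 0.11, limma adjusted p = 1.07e-05). CDK4 (-0.55), its inhibitor CDKN2C (-0.55) and MYC (-0.26) were lower. Among 21 p53 targets tested, of 22 listed, 7 were called higher and 3 lower, with a median of 0.31; the death receptor TNFRSF10B was higher (1.98) and GADD45A lower (-1.10).

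**Figure D4:**
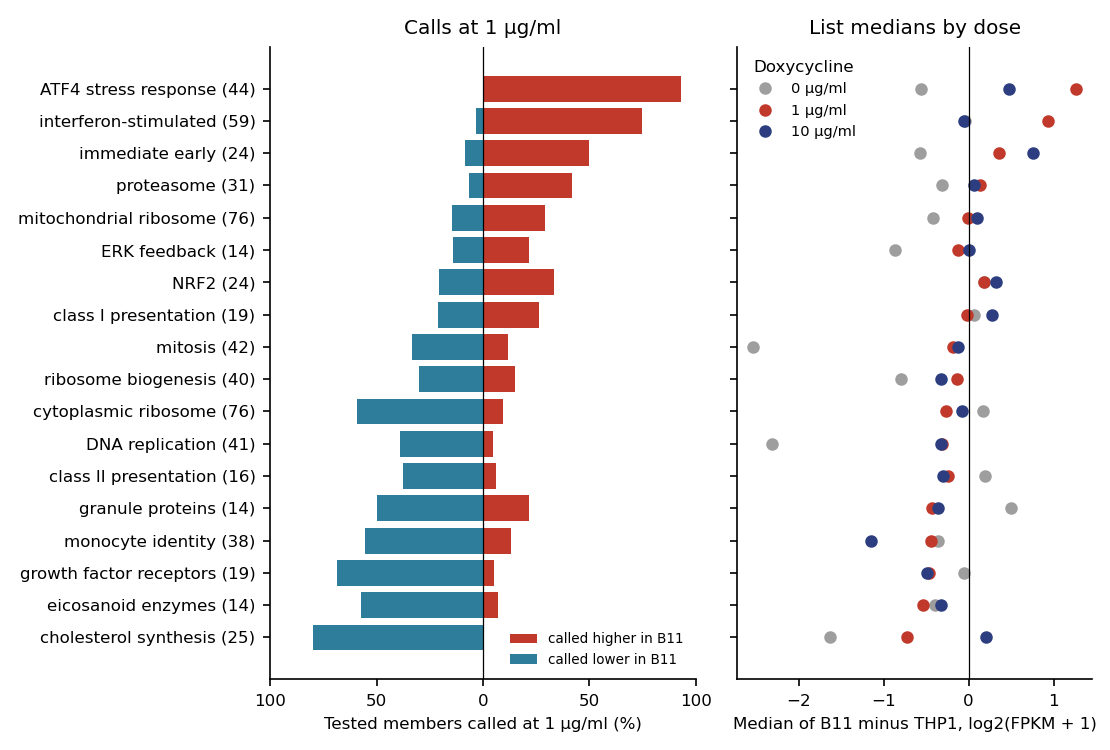
Left, share of the tested members of 18 gene lists called higher (right of 0) or lower (left of 0) in B11 than in THP1 at 1 ug/ml doxycycline; right, the median difference of each list (log2(FPKM + 1), B11 minus THP1) at 0, 1 and 10 ug/ml. The ATF4 list has 41 of 44 called higher with medians of -0.56, 1.26 and 0.47, and the interferon-stimulated list 44 of 59 with medians of -0.04, 0.94 and -0.06.

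The S100A8, S100A9 and S100A12 genes of monocytes were far lower in B11 than in THP1. S100A8 and S100A9 form calprotectin, the main calcium-binding protein of the monocyte and neutrophil cytosol. Of 38 monocyte and macrophage genes tested, of 45 listed, 5 were called higher and 21 lower, with a median of -0.45. Leaving out 1 library at a time, 16 to 21 were called lower. S100A8 (chr1:153390032-153391188) had 4.19, 3.15 and 5.98 FPKM in B11, against 376, 414 and 375 FPKM in THP1, a difference of -6.19 (SE 0.19, limma adjusted p = 1.65e-11). S100A9 (chr1:153357854-153361027) had 14.5, 12.4 and 16.8 FPKM in B11, against 807, 873 and 763 FPKM in THP1, a difference of -5.72 (SE 0.17, limma adjusted p = 1.65e-11). S100A12, which lies between them, had 0.242, 0 and 0 FPKM in B11, against 22.9, 25.9 and 22.1 FPKM in THP1, a difference of -4.52 (SE 0.39, limma adjusted p = 7.29e-07). No library of B11 came near the THP1 range for these genes, and no overlap was a condition for naming the largest differences. The nearest tested genes with a symbol outside the 3 were S100A6, at -0.27, and TCHH, at 0.66. S100P, on chromosome 4, went the other way, with 140.4, 132 and 146 FPKM in B11, against 28.5, 24.1 and 17.6 FPKM in THP1, a difference of 2.55 (SE 0.19, limma adjusted p = 1.82e-07).

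The differences of other monocyte genes were smaller. CD93, a receptor of myeloid cells, had 11.3, 10.4 and 9.99 FPKM in B11, against 33, 32.3 and 35.7 FPKM in THP1, a difference of -1.58 (SE 0.08, limma adjusted p = 2.97e-09). LYZ, the lysozyme gene, had 463, 464 and 419 FPKM in B11, against 758, 803 and 752 FPKM in THP1, a difference of -0.78 (SE 0.11, limma adjusted p = 1.15e-04), and the macrophage receptor CSF1R was lower by -0.88. CD68, a lysosomal membrane protein on chromosome 17, was higher, with 557, 596 and 608 FPKM in B11, against 295, 279 and 284 FPKM in THP1, a difference of 1.03 (SE 0.08, limma adjusted p = 1.40e-07). Of 19 haematopoietic growth factor and cytokine receptors tested, of 22 listed, 13 were called lower and 1 higher, with a median of -0.47. Leaving out 1 library at a time, 9 to 13 were called lower. KIT, the stem cell factor receptor, had 0.161, 0.136 and 0.113 FPKM in B11, against 6.27, 12.3 and 7.08 FPKM in THP1, a difference of -3.02 (SE 0.22, limma adjusted p = 1.22e-07). IL6R (-0.85) and TNFRSF1B (-0.63) were lower by less. The 1 called higher was CSF2RA, the GM-CSF receptor alpha chain, named after its value was seen (1.04).

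Of 25 haematopoietic transcription factors tested, of 30 listed, 3 were called higher and 8 lower, with a median of -0.06. KLF2, a quiescence factor of leukocytes, had 68.3, 74.5 and 77.9 FPKM in B11, against 6.22, 9.72 and 8.38 FPKM in THP1, a difference of 3.05 (SE 0.17, limma adjusted p = 6.50e-09). CEBPB, a factor of monocytes and of the acute phase, was higher by 1.47, while CEBPE, which acts in late granulocyte maturation, was lower by -1.25 and NFE2 by -1.61. SPI1, the master factor of myeloid cells, named after its value was seen, stood at 0.05. Of 14 granule genes tested, of 20 listed, 3 were called higher and 7 lower, with a median of -0.42. Away from chromosomes 5, 6, 10 and 17 it was 1 higher and 7 lower of 11, with a median of -0.55. The gelatinase MMP9 had 0.379, 0.0797 and 0.144 FPKM in B11, against 17.9, 15.8 and 14.2 FPKM in THP1, and the adhesion protein CEACAM6 had 0.151, 0.160 and 0.197 FPKM in B11, against 20.7, 19.3 and 18 FPKM in THP1, with differences of -3.82 and -4.12. ELANE, neutrophil elastase, was higher by 0.81 and the granule proteoglycan SRGN by 1.23.

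Of 16 class II antigen presentation genes tested, of 17 listed, 1 was called higher and 6 lower, with a median of -0.25. HLA-DRA had 2.17, 2.52 and 1.43 FPKM in B11, against 13.3, 10.9 and 10.5 FPKM in THP1, a difference of -2.06 (SE 0.20, limma adjusted p = 2.07e-06), and HLA-DPB1 was lower by -2.08. HLA-DRB1 was called higher (0.57) and HLA-DRB5 lower (-0.59), but reads of such near-identical, polymorphic genes can be split among them. Of 19 class I genes 5 were called higher and 4 lower, with a median of -0.02. The 5 higher were among the 12 on chromosomes 5, 6, 10 and 17 and included HLA-E (1.07) and HLA-B (0.70), both in the raised run of chromosome 6. On the other chromosomes 3 of 7 class I genes and 1 of 6 class II genes were called lower. CALR, a chaperone of class I loading on chromosome 19, was lower (-1.01). Of 23 inflammatory chemokines and cytokines tested, of 29 listed, 4 were called higher and 3 lower, with a median of -0.15, and away from the 4 chromosomes 1 was higher and 3 lower of 15. The share called was 30.4%, against 29.8% of all genes tested and 36.0% of the protein-coding genes tested. CCL5, a chemokine on chromosome 17, had 238, 235 and 240.4 FPKM in B11, against 53.2, 55.7 and 47.1 FPKM in THP1, a difference of 2.17 (SE 0.08, limma adjusted p = 1.27e-10). TNF, in the raised run of chromosome 6, had 23.5, 22.6 and 24.6 FPKM in B11, against 6.93, 6.04 and 6.03 FPKM in THP1, a difference of 1.75 (SE 0.21, limma adjusted p = 1.83e-05). Prostaglandin and leukotriene enzymes were called higher for 1 and lower for 8 of 14 tested, of 18 listed; ALOX5AP was lower (-0.81) and LTC4S on chromosome 5 higher (1.62).

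Several of the genes with the largest differences were near 0 in one of the lines. AKR1C2 (chr10:4987400-5018031), an aldo-keto reductase that reduces steroids, had 139, 137 and 137 FPKM in B11, against 1.13, 0.279 and 0.441 FPKM in THP1, a difference of 6.46 (SE 0.28, limma adjusted p = 7.11e-10). Its neighbours AKR1C1 and AKR1C3 were higher by 3.08 and 3.65. The 3 are close copies, so their shares are uncertain, and their summed levels were 164.6 to 171.0 FPKM in B11 and 0.97 to 2.11 FPKM in THP1. AKR1C2 stood at 0.409, 0 and 0.692 FPKM at 0 and 621, 644 and 626 FPKM at 10 ug/ml in B11, and at 0.918, 1.21 and 0.627 FPKM and 1.98, 3.85 and 0.964 FPKM in THP1. Of the NRF2 antioxidant list, in whose target genes AKR1C members are often counted, 8 of 24 were called higher and 5 lower, with a median of 0.18. FTH1, the ferritin heavy chain, had 1138, 1336 and 1238 FPKM in B11, against 349, 353 and 306 FPKM in THP1, a difference of 1.88 (SE 0.09, limma adjusted p = 1.90e-09), and the autophagy receptor SQSTM1 on chromosome 5 was higher by 1.38.

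NCAM1 (chr11:112961247-113278436), a neural cell adhesion molecule also known as CD56, had 164, 168 and 159.8 FPKM in B11, against 0.920, 2.59 and 1.85 FPKM in THP1, a difference of 5.93 (SE 0.26, limma adjusted p = 1.00e-09). It stood at 6.02 at 0 and 6.45 at 10 ug/ml, and its tested neighbours PTS (0.30) and TTC12 (0.06) did not pass the test. HMX3, a homeobox gene on chromosome 10, had 11.8, 11.3 and 10.3 FPKM in B11, against 0.0676, 0.147 and 0 FPKM in THP1, a difference of 3.50 (SE 0.14, limma adjusted p = 2.93e-10), with 3.10 at 0 and 3.14 at 10 ug/ml. ARTN, a ligand of the GDNF family, had 40.8, 44.6 and 40.5 FPKM in B11, against 3.50, 2.48 and 2.93 FPKM in THP1, a difference of 3.44 (SE 0.24, limma adjusted p = 7.06e-08). FCER2, the low affinity IgE receptor, was higher by 3.06, and the tight junction gene CLDN7 on chromosome 17 by 2.99. CXorf57 had 11, 11.4 and 10.5 FPKM in B11 and was listed at 0 in all 3 THP1 libraries. TERT, the telomerase subunit on chromosome 5, had 14.9, 14.7 and 13.6 FPKM in B11, against 1.52, 1.85 and 1.25 FPKM in THP1, a difference of 2.61 (SE 0.19, limma adjusted p = 1.57e-07), against -0.70 at 0 and 2.76 at 10 ug/ml. U2AF1, a splicing factor, had 11.7, 24.6 and 27.3 FPKM in B11, against 0.509, 0.173 and 0.309 FPKM in THP1, but its near-identical copy U2AF1L5 had 0.117, 0.536 and 0.354 FPKM in B11 and 0.414, 24.4 and 4.65 FPKM in THP1. The summed levels of both copies overlapped between the lines, so the call for U2AF1 is uncertain.

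Of the genes lower in B11, SPP1, the secreted protein osteopontin, had 1.06, 3.98 and 6.41 FPKM in B11, against 111, 104 and 74.8 FPKM in THP1, a difference of -4.51 (SE 0.53, limma adjusted p = 1.47e-05). HSD11B1, which makes active glucocorticoid, had 2.67, 2.64 and 1.96 FPKM in B11, against 39.8, 49.5 and 42.9 FPKM in THP1, and TMEM176B, a transmembrane protein of myeloid cells, had 0.0942, 0 and 0 FPKM in B11, against 26, 25.3 and 20.3 FPKM in THP1. Their differences were -3.72 and -4.59. None of these libraries overlapped between the lines, which was a condition for naming the largest differences. MAGED1, ZNF662, TESC, PLEKHO1 and CLU were lower by -3.73, -3.43, -3.23, -3.05 and -3.08 in that order. The complement gene C3 had 18.8, 18.8 and 13.7 FPKM in B11, against 74, 102 and 75.9 FPKM in THP1, a difference of -2.23 (SE 0.21, limma adjusted p = 2.18e-06), and C1QA was lower by -2.35. Most of these genes were lower at every dose: SPP1 stood at -6.04 at 0 and -5.10 at 10 ug/ml, and TESC at -3.21 and -3.28.

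**Figure D5:**
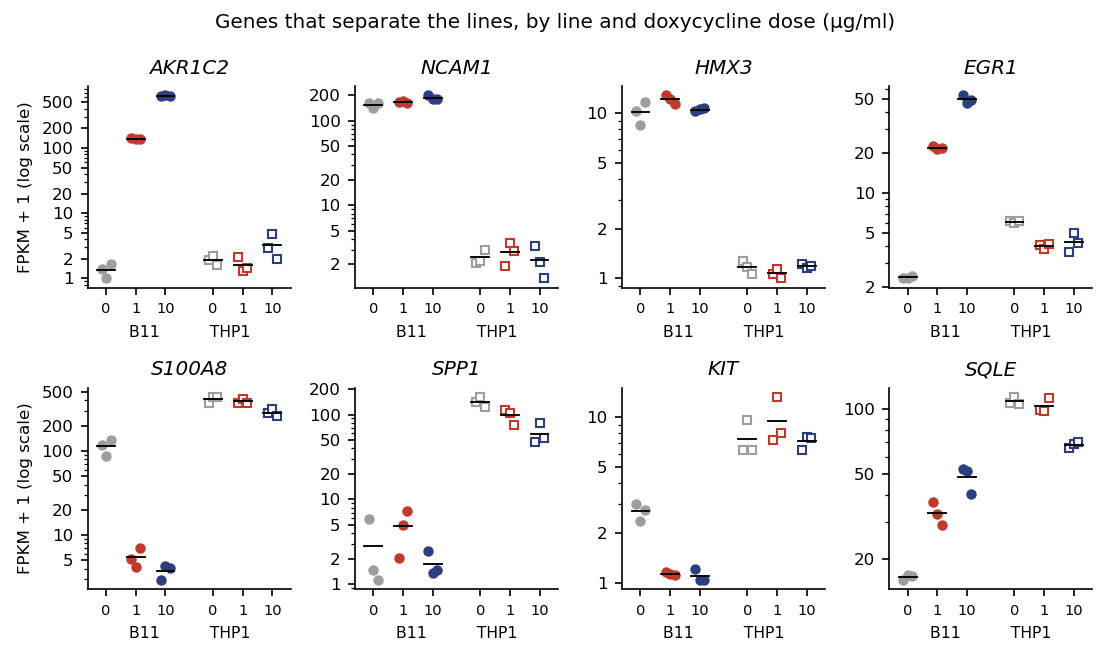
FPKM + 1 (log axis) of AKR1C2, NCAM1, HMX3, EGR1, S100A8, SPP1, KIT and SQLE in every library of B11 (filled circles) and THP1 (open squares) at 0, 1 and 10 ug/ml doxycycline, with a bar at each group mean. NCAM1 and HMX3 are high in B11 at each dose, AKR1C2 at 1 and 10 ug/ml, and S100A8 has 4.19, 3.15 and 5.98 FPKM in B11 at 1 ug/ml, against 376, 414 and 375 FPKM in THP1.

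The same comparison called 8269 genes at 0 ug/ml (47.1%) and 5691 at 10 ug/ml (32.4%), with other plates of each line. Of the 2639 genes higher at 1 ug/ml, 1725 were also higher at 10 ug/ml (65.4% of the first list and 59.9% of the second) and 46 were lower there. With 0 ug/ml 1527 were shared (57.9% and 37.0%) and 273 were lower there. Of the 2592 genes lower at 1 ug/ml, 1559 were also lower at 10 ug/ml (60.1% and 55.5%) and 1608 at 0 ug/ml (62.0% and 38.8%), and 49 and 236 were higher there. At all 3 doses 1098 genes were called higher and 1078 lower. The difference itself changed between 0 and 1 ug/ml for 4544 genes (25.9%), 2509 towards B11 and 2035 away from it, and between 1 and 10 ug/ml for 814 (4.64%), 395 towards B11 and 419 away. After rescaling the values to TPM these splits were 2855 and 1630, and 372 and 438. With the highest ID left out of that rescaling they were 3148 and 1512, and 305 and 561. Within THP1 2 genes differed between 1 and 0 ug/ml (0.0114%), and within B11 6516 (37.1%), which share the 1 ug/ml plates with the comparisons above. The step from 1 to 10 ug/ml within THP1 was not tested. Of the genes given above, TRIB3 and CHAC1 stood higher in THP1 at 10 than at 1 ug/ml and MSMO1 lower, with no overlap of libraries. A change of the difference between 1 and 10 ug/ml can thus come from either line.

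The order of the doses differed from gene to gene. G0S2, a lipase inhibitor, had 1.71, 6.70 and 3.42 FPKM at 0, 84.1, 77.4 and 80.9 FPKM at 1 and 9.40, 12.4 and 9.64 FPKM at 10 ug/ml in B11, and 20.1, 20.1 and 21.4 FPKM, 17.3, 20.8 and 16.7 FPKM and 28, 25.1 and 25.3 FPKM in THP1. SERPINB2, an inhibitor of plasminogen activators, had 67.9, 62 and 83.5 FPKM, 19.3, 20.7 and 19.6 FPKM and 88.6, 87.4 and 90.9 FPKM in B11 at 0, 1 and 10 ug/ml, and 43.6, 44.9 and 46 FPKM, 42.1, 43.4 and 42.6 FPKM and 50.03, 53 and 46.4 FPKM in THP1. Its difference was 0.64, -1.07 and 0.83 at the 3 doses, all of them called. CD36, a scavenger receptor, had a lower difference at each higher dose, with 0.39, -0.79 and -3.45. PPP1R27, a phosphatase regulator on chromosome 17, had called differences of 0.50, 1.55 and 3.49. OLFML3 turned between 0 and 1 ug/ml, with 0.34, which did not pass the test, and then -2.85 and -3.39. Exons of many of the genes named, ISG15, XAF1, LY6E, DDIT4, SLC7A5, FDFT1, DUSP6, NR4A1, CDKN1A, LYZ, CD68, MMP9, TMEM176B, NCAM1, FTH1, CEBPB and HLA-B among them, overlap an exon on the other strand in GENCODE 29, and without a stated strand their reads cannot be told apart from that partner's.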

How the data were processed

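RNA was sequenced from 18 plates, and the table holds 1 column for each, matched to its label by name. The values are FPKM that the authors deposited, made with HISAT2 on GRCh38 and Cuffnorm per the submitters' processing notes; the labels and notes used here give no versions, gene annotation, scaling or strand setting, and the unit follows from the tool and the values. Cuffnorm scales libraries to each other and shares reads among gene copies by a model, so low values and near-identical genes are the least certain. FPKM sums were 1008590 to 1200680 a library. Of 60658 IDs, GENCODE release 29 named 57047.

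Genes at 1 FPKM or more in at least 3 of 18 libraries (17555 of 32538 with any value) were tested on log2(FPKM + 1) with limma 3.58.1 (R 4.3.3), with an intensity trend, 6 group means, 12 residual degrees of freedom and Benjamini-Hochberg adjustment over all genes tested; adjusted p below 0.05 is called. All 18 libraries shared 1 estimate of the spread. The change of the difference between doses is the interaction contrast of the same fit. The code of the fit was run on simulated, independent normal values in which a small share of the genes was changed. That setting lacks the many changes and the chromosome-wide shifts of these data, so it is a check of the code only. Python 3.11.15, pandas 2.3.3 and matplotlib 3.10.9 made the tables and plots. Depth in fragments was estimated from the smallest values of 1651 to 2150 genes a library, taking fragments as 200 bases long. With 3 plates a group, precision is limited by the spread between plates.

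The members and the gene lists were chosen with earlier results of these data known. Named genes are NRAS and its relatives; the 15 called genes with the largest difference in each direction, at a mean of 5 FPKM or more and with no overlap of libraries; the 8 largest changes between doses in each direction; up to 4 called members of each list with the smallest p; and tested neighbours of the 5 largest in each direction. Some genes that this rule selects are not reported here. Others are said to be named after their values were seen. Promoters came from RefSeq (GRCh38.p14), matched by symbol. Letters A, B and C were not used as pairs: same-letter libraries deviated together with r of -0.070 to 0.092, above 0.1 in 0 of 45 pairs. Where lists are given with none called by limma at 1 ug/ml (ATF4 lower, sterol higher, ribosomal protein genes of the other chromosomes higher) the count at an unadjusted p below 0.05 was 0 as well; for the replication genes between 1 and 10 ug/ml it was 2 higher and 5 lower. The alternatives changed the pseudocount, the filter, the scaling, the trend, the samples in the fit, the replicate block and single libraries.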

Additional observations from a re-analysis of the deposited data

Results flagged for a closer look

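The difference between B11 and THP1 was tested for change between doses, and 4544 genes changed between 0 and 1 ug/ml and 814 between 1 and 10 ug/ml (limma, adjusted p below 0.05). In each sentence below the value is the change of that difference on the log2(FPKM + 1) scale. Between 0 and 1 ug/ml it was 6.97 for AKR1C2, 5.64 for U2AF1, whose copy U2AF1L5 makes it uncertain, 5.33 for TNF, 4.79 for CHAC1, 4.76 for S100P, 4.70 for IFI27, 4.63 for SLC7A5 and 4.4 for PHGDH. In the other direction it was -4.30 for S100A8, -3.53 for S100A9, -3.40 for PTGDS, a prostaglandin D synthase, -3.19 for OLFML3, -2.94 for the amine oxidase AOC1, -2.77 for the kinase MAP3K12 and -2.73 for ALG13-AS1, which is listed at 0 in B11 at 1 ug/ml. The call for ALG13-AS1 was lost in 11 alternatives, among them a pseudocount of 0.1, no filter on low values and leaving out each of 8 single libraries, and that for U2AF1 in 1.

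Between 1 and 10 ug/ml it was 2.23 for the calcium channel subunit CACNB1, 2.04 for MSMO1, 1.96 for MACROD1, 1.94 for AKR1C1, 1.94 for PPP1R27, 1.89 for SERPINB2, 1.82 for TBC1D30 and 1.81 for C16orf86. It was -6.56 for U2AF1, -3.82 for IFI27, -3.34 for G0S2, -2.99 for OAS3, -2.83 for SIGLEC1, -2.66 for CD36, -2.66 for IFITM1 and -2.63 for OAS2. Of these 8, IFI27, OAS3, SIGLEC1, IFITM1 and OAS2 are interferon-stimulated genes. Of the calls between 1 and 10 ug/ml, that for U2AF1 was lost in 10 alternatives, TBC1D30 in 4, AKR1C1 in 3, CACNB1 in 2, and IFI27 and IFITM1 in 1 each.

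Outside the genes tested, an ID that GENCODE 29 does not name stood at 76850 FPKM in library B and 42501 FPKM in library C of B11 at 1 ug/ml, 6.51% and 3.76% of the FPKM sum of those libraries. In the other 16 libraries it was near 0.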

How the results depend on the processing

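Leaving out 1 library at a time gave 4233 to 5305 called genes at 1 ug/ml, against 5231, and the other alternatives on all plates and chromosomes 4086 to 5239. The counts of changes of the difference ranged from 3928 to 4583 for 1 against 0 ug/ml and from 502 to 889 for 10 against 1 ug/ml, the lowest without low dose B11 library C; other alternatives on all plates and chromosomes gave 3900 to 4660 and 681 to 868. With the replicate letter as a block the counts were 5084, 4383 and 728, and the call of 1 named gene, TIMP2, changed. Without both low dose B11 libraries B and C the counts were 2704 at 1 ug/ml, 3060 for 1 against 0 and 232 for 10 against 1, with 7 early response genes called higher, 12 monocyte genes lower and 4 receptors lower; fewer samples enter that fit. Without genes of chromosomes 5, 6, 10 and 17, 3715 genes were called, 1285 higher and 2430 lower, and 3614 and 640 for the changes, since those genes are left out. Rescaling to TPM without the highest ID moved the median change from 0 to 1 ug/ml by 0.11, and split the changes as 3148 towards B11 and 1512 away, and from 1 to 10 ug/ml as 305 and 561. Under TPM 18 mitochondrial ribosomal protein genes were called lower in place of 11, and 3 NF-kB genes higher in place of 6. The difference of chromosomes 5, 6, 10 and 17 from the others was 0.48, 0.49, 0.94 and 0.67 with a pseudocount of 0.1, 0.30, 0.28, 0.55 and 0.43 with 5, 0.21, 0.21, 0.53 and 0.37 with no filter on low values, and 0.46, 0.45, 0.91 and 0.63 at a mean of 5 FPKM or more. Leaving out 1 library gave 0.42 to 0.45, 0.41 to 0.44, 0.80 to 0.83 and 0.59 to 0.61, and leaving out both libraries B and C of B11 gave 0.87 for chromosome 10; these alternatives were chosen after seeing the data. Where not stated, the cause of a shift was not tested. Of 247 called values of named genes, 209 stayed called in every alternative that kept the gene and 0 turned round. Depth limits genes under a few FPKM.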
